A study of Rattus norvegicus with 2 samples.

Results

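Pcp4, the calmodulin genes Calm2 and Calm3, the neuronal calcium sensor genes Ncald, Vsnl1, Hpcal1 and Ncs1, and the calcium buffer genes Calb1 and Calb2 were examined in the sympathetic neurons of the rat stellate ganglion, the ganglion whose cells innervate the heart. These 9 genes were taken by symbol from 25395 genes, and all 9 had a value. Pcp4 was chosen for its large fall in the SHR library of these same data, so its difference is a description and carries no test. Stellate ganglia of male rats of 5 to 6 weeks of age were dissociated with Collagenase IV and Trypsin, and their cells were sequenced with 10x Genomics 3' v3 droplet chemistry. The data hold 1 library from Wistar rats, labelled Normotensive, and 1 library from SHRs (spontaneously hypertensive rats), labelled Prehypertensive. Neither group carries a treatment or a transgene, and the number of animals behind each library is not given in the sources used here.

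Each value is a mean over the sympathetic neuron cluster of 1 library, in counts per 10000 counts of a cell, and the number of neurons and their depth are unknown. Each strain has 1 library, so there are no replicates from which an error or a p-value could come, and strain and library cannot be told apart. A lower mean can stand for fewer neurons with the transcript or for fewer counts in each of them, and these cannot be told apart either. The cluster also pools both sympathetic neuron populations of the study. Differences are given as the percent change of the mean and as a log2 difference (log2 of the mean with 1 added, Wistar subtracted from SHR), in which the added 1 shrinks the differences of low genes. In place of a test, a size rule counts a gene as lower or higher when its mean differed by at least 1.5-fold, among the 7621 genes with a mean of at least 0.1 per 10000 when both libraries are averaged. Of these 7621 genes, 26.5% were lower and 5.22% were higher by at least 1.5-fold, and 65.6% were lower by any amount.

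Calmodulin is the small EF-hand protein through which calcium controls kinases, phosphatases and ion channels, and in rats as in other mammals the genes Calm2 and Calm3 encode the same protein. Pcp4, also called PEP-19, is a small protein that binds calmodulin through an IQ motif and speeds the exchange of calcium at it. Neuronal calcium sensors are EF-hand proteins related to recoverin that change their membrane binding or their partners when calcium rises, while calbindin and calretinin, encoded by Calb1 and Calb2, are counted among the calcium buffers. In sympathetic neurons calcium entry drives noradrenaline release and shapes firing through calcium-activated channels.

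The mean of Pcp4 was 7.26 per 10000 in the Wistar neurons and 2.40 per 10000 in the SHR neurons. The Wistar value was 3.03 times the SHR value, so that Pcp4 was 67.0% lower in SHR, a log2 difference of -1.28. Ordered by mean, Pcp4 stood at rank 129 of all genes in Wistar and at rank 649 in SHR. Of the 7621 genes past the minimum, 4 had a lower log2 difference than Pcp4. A log2 difference of -1 or below was held by 0.171% of these genes, and Pcp4 was the 1 member among them, which is the contrast it was chosen from. A difference of 1 or above was held by 0.0525% of the genes and by 0 members. The added 1 shrinks the differences of low genes, so these positions depend on level. By the plain ratio Pcp4 was at -1.60 on the log2 scale, and scarcer genes such as Ppp3cc (-1.85) and Iqgap1 (-1.77) were lower still. Among the 129 genes with a Wistar mean at or above that of Pcp4, 5 fell by at least its ratio, Pcp4 included. Pcp4 was also lower relative to single genes that mark the neurons, by an amount that depends on the marker. There were 71.1 counts of Pcp4 per 100 counts of Th, the tyrosine hydroxylase gene, in Wistar and 23.7 in SHR, and 45.7 and 15.7 per 100 counts of Slc6a2, the noradrenaline transporter gene, whose own SHR mean was 15.2 per 10000 beside 15.9 in Wistar neurons. Against Dbh and Ddc, enzyme genes of noradrenaline synthesis that were themselves lower in SHR, there were 71.2 and 37.7 counts of Pcp4 per 100 counts of Dbh and 102.8 and 69.6 per 100 counts of Ddc. Such a ratio of scaled means is unchanged when all means of a library are rescaled together. The scaling of each cell to its own total remains in it.

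**Figure D1:**
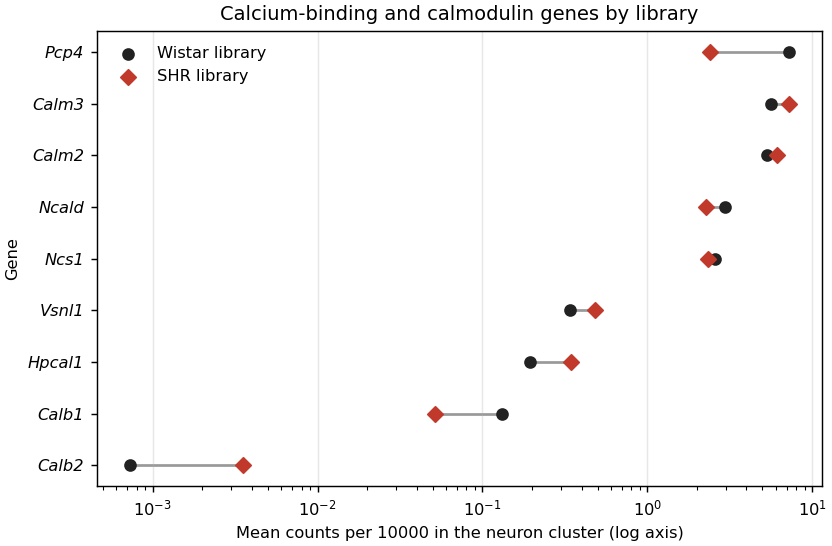
Mean counts per 10000 counts of a cell in the neuron cluster, on a log axis, for the 9 genes, with 1 point for the Wistar library and 1 for the SHR library and a line joining them. Pcp4 lies at 7.26 in Wistar and 2.40 in SHR, and Calm2 and Calm3 lie to the right in SHR.

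Pcp4 and Hpcal1 are the members with the largest decrease and the largest increase, in percent, among those past the minimum, and their promoters are shown for that reason. Both are the 250 bases before a start site in RefSeq on the GRCr8 assembly, and are written 5′ to 3′ on the strand of the gene. The Pcp4 sequence is chr11:49269936-49270185 on the plus strand. It lies before a start site that is 41001 bases inside the annotated span of the gene, so it stands for 1 of its transcripts. The Hpcal1 sequence is chr6:46206644-46206893, also on the plus strand. Capitals mark GC boxes, the letters GGGCGG on either strand.
Pcp4: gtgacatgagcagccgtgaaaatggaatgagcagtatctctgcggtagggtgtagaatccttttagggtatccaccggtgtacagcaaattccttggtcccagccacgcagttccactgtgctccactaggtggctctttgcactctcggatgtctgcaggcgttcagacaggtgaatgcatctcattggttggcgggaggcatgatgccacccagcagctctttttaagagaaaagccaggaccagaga
Hpcal1: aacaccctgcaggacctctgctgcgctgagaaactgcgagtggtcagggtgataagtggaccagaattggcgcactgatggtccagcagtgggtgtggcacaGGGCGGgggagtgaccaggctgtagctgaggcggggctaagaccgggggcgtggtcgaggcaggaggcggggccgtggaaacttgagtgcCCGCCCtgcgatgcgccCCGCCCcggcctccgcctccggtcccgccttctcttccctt
The Hpcal1 sequence holds 3 GC boxes and the Pcp4 sequence holds 0, against 30.5% of 33469 rat promoters of the same length with at least 1. The cAMP response element TGACGTCA, the AP-1 site TGANTCA and the TATA box TATAAA, searched on both strands, were in neither sequence. They were found in 1.59%, 6.34% and 12.9% of all promoters. The letters G and C make up 52.4% of the Pcp4 sequence and 67.2% of the Hpcal1 sequence, and the median over all promoters was 51.2%. These matches describe letters in a window, and no binding was measured.

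The calmodulin genes Calm2 and Calm3 were higher in SHR, and neither reached 1.5-fold. Calm2 averaged 5.36 per 10000 in Wistar neurons and 6.16 in SHR neurons, which is 15.0% higher, a log2 difference of 0.17. Calm3 averaged 5.60 per 10000 in Wistar neurons and 7.29 in SHR neurons, 30.1% higher with a log2 difference of 0.33. Both genes thus moved against Pcp4, by amounts that many genes of like abundance exceeded. Among the 1676 genes with an average of at least 1 per 10000, 18.0% had a higher log2 difference than Calm3 and 34.1% a higher one than Calm2. In these more abundant genes 45.5% were lower in SHR, 11.6% were lower by at least 1.5-fold and 10.3% higher by that size. Calml4, a calmodulin-like gene, stood at 0.0187 per 10000 in the Wistar neurons and 0.0184 in the SHR neurons, and Calml3 was listed at 0 in both.

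Calm2 and Calm3 together amounted to 11.0 per 10000 in Wistar and 13.4 in SHR, 22.7% more in SHR. Calm3 made up 51.1% of this sum in Wistar and 54.2% in SHR, so the share of each gene differed little. The ratio of Pcp4 to these transcripts of its binding partner differed far more. There were 66.2 counts of Pcp4 per 100 counts of Calm2 and Calm3 in Wistar and 17.8 in SHR. The 3' chemistry tags 1 end of a transcript, so these counts were not divided by transcript length, and how well each transcript was captured is unknown.

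The transcripts of the other small IQ motif proteins were abundant in 1 case and scarce in the others. Gap43, the growth-associated protein of axons, averaged 13.3 per 10000 in Wistar neurons and 21.5 in SHR neurons, 61.7% higher with a log2 difference of 0.65. Of the 7621 genes, 0.262% had a higher log2 difference than Gap43, a size that low genes can hardly reach with 1 added. By the plain means Gap43 was 1.62-fold higher. Among the 1676 genes with an average of at least 1 per 10000, 10.3% were higher by at least 1.5-fold. There were 54.6 counts of Pcp4 per 100 counts of Gap43 in Wistar and 11.2 in SHR. Pcp4l1, the closest relative of Pcp4, was scarce, at 0.0141 per 10000 in the Wistar neurons and 0.00378 in the SHR neurons, and did not pass the minimum. Nrgn (neurogranin) was at 0.00078 per 10000 in the Wistar neurons and listed at 0 in SHR.

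**Figure D2:**
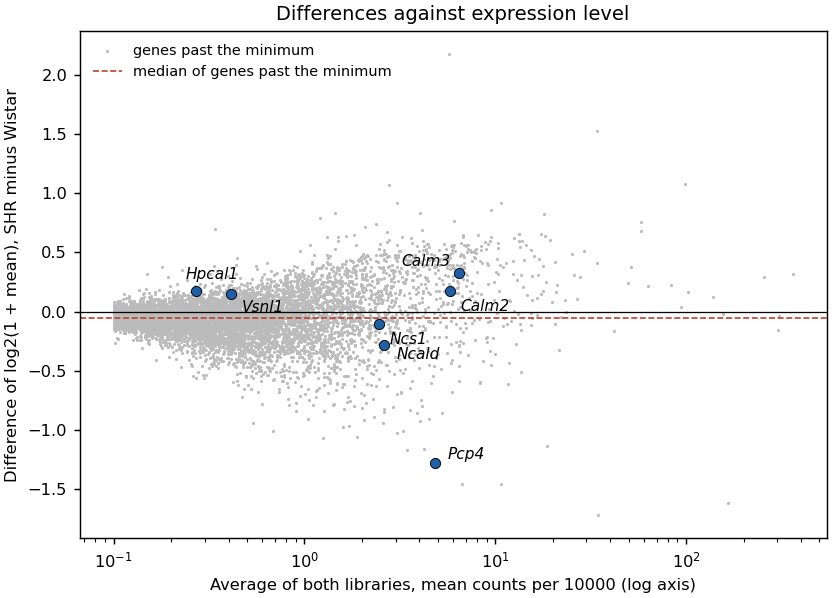
The log2 difference (log2 of the mean with 1 added, Wistar subtracted from SHR) against the average of both libraries in mean counts per 10000 on a log axis, for the 7621 genes past the minimum (grey) and, in blue, the 7 members among them. Pcp4 lies at -1.28, Calm2 and Calm3 lie above 0, and the dashed line is the median of all these genes at -0.05.

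Of the 9 members, 7 passed the minimum. Pcp4, Ncald and Ncs1 were lower in SHR, which is 3 of 7 against 65.6% of all genes past the minimum, and Calm2, Calm3, Vsnl1 and Hpcal1 were higher, which is 4 of 7 against 34.4%. This contrast depended on level. With a minimum of 1 per 10000, 5 members were counted and 3 of them were lower, against 45.5% of 1676 genes. The median log2 difference of the 7 was 0.15, beside -0.05 over all genes past the minimum. By the size of 1.5-fold, 1 member was lower (Pcp4, against a background of 26.5%) and 1 was higher (Hpcal1, against 5.22%). With so few members, chosen by hand, these counts describe the genes and no more.

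Among the neuronal calcium sensors, the means of the abundant genes Ncald and Ncs1 were lower and those of the scarcer Vsnl1 and Hpcal1 higher in SHR, where Ncs1 turned to higher once the median of the plain ratios was set to 0. Ncald, which encodes neurocalcin delta, averaged 2.98 per 10000 in Wistar neurons and 2.27 in SHR neurons, 23.8% lower with a log2 difference of -0.28. Of the 7621 genes past the minimum, 9.09% had a lower log2 difference than Ncald. Among the 1676 genes with an average of at least 1 per 10000 it was 16.1%. Ncs1, the gene of neuronal calcium sensor 1, also known as frequenin, stood at 2.57 per 10000 in Wistar neurons and 2.32 in SHR neurons, 9.76% lower with a log2 difference of -0.11. The difference of Ncs1 was small beside those of other genes, 34.8% of which had a lower one.

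Vsnl1, which encodes visinin-like protein 1, had 0.338 per 10000 in Wistar and 0.483 in SHR, 43.1% higher with a log2 difference of 0.15. Hpcal1, the hippocalcin-like 1 gene, had 0.195 per 10000 in Wistar and 0.345 in SHR. At 76.5% it had the largest percent increase among the members past the minimum, and its log2 difference was 0.17. Both means were low, and with the depth unknown the counting error behind these differences cannot be stated. Of all genes past the minimum, 10.5% had a higher log2 difference than Hpcal1 and 12.0% a higher one than Vsnl1.

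The sensor family list held 14 genes, of which 13 had a line and 6 passed the minimum. Of these 6, 3 were lower and 3 higher in SHR, against 65.6% and 34.4% of all genes past the minimum. The median log2 difference of the 6 was 0.0071, beside -0.05 for all genes. The non-members among them were Kcnip4, a Kv4 channel-interacting protein gene, at 1.71 per 10000 in Wistar neurons and 1.47 in SHR neurons, and Hpcal4, another hippocalcin-like gene, at 0.752 and 0.903. Hpca (hippocalcin) was at 0.0307 per 10000 in Wistar neurons and 0.0138 in SHR neurons, and Rcvrn (recoverin) and Kcnip3 were listed at 0 in both. Summed, the family reached 8.59 per 10000 in Wistar and 7.81 in SHR, 9.06% less. Ncald made up 34.7% of this sum in Wistar and 29.1% in SHR, and Ncs1 29.9% and 29.7%. Vsnl1 went from 3.93% to 6.19% and Hpcal1 from 2.28% to 4.42% of it. Ncald was thus ahead of Ncs1 in Wistar, and in SHR the order of their means was the other way round by a small margin, for which no spread is known.

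The related CaBP and NECAB genes were scarce. Of 9 such genes, Cabp1 and Cabp7, which encode calmodulin-like calcium-binding proteins, passed the minimum. Both were lower in SHR by at least 1.5-fold, as were 26.5% of all genes past the minimum. Cabp7 averaged 0.106 per 10000 over both libraries, and its SHR mean was below the minimum of 0.1. It passed through its Wistar mean alone, so its direction was fixed by the minimum. Cabp1 went from 0.487 per 10000 in Wistar neurons to 0.319 in SHR neurons, and Cabp7 from 0.162 to 0.0498. Cabp2, Cabp5 and Caln1 were listed at 0 in both libraries.

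The EF-hand buffers were at the bottom of the range. Calb1 averaged 0.132 per 10000 in Wistar neurons and 0.0518 in SHR neurons, 60.6% lower, and at an average of 0.0917 it was just under the minimum. Its log2 difference was -0.11. Calb2 was at 0.000725 per 10000 in Wistar neurons and 0.00355 in SHR neurons, at ranks 14649 and 12315, and no direction can be read from means this small. None of the buffers on the list passed the minimum. Pvalb (parvalbumin) was listed at 0 in both libraries, S100g was at 0.0417 per 10000 in Wistar neurons and 0.0500 in SHR neurons, and Scgn (secretagogin) was at 0.0201 and 0.0118. The means of the buffer genes summed to 0.194 per 10000 in Wistar and 0.117 in SHR, below the mean of Ncald alone.

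The genes through which calmodulin acts were divided by class. Of 18 calmodulin kinase genes, 9 passed the minimum, 8 of these were lower in SHR (65.6% of all genes past the minimum) and 5 by at least 1.5-fold (26.5%), and the median log2 difference was -0.29 beside -0.05 for all genes. Once the median of the plain ratios was set to 0, the same 8 were lower, against 50.0% of all genes, and 3 of the 5 (Camk2b, Camk2d and Camkk2) kept the size. Among the 8 were 3 subunit genes of CaMKII, the kinase activated by calmodulin that can hold itself active. Camk2b went from 2.37 per 10000 in Wistar neurons to 1.33 in SHR neurons, 43.8% lower with a log2 difference of -0.53. Camk2g went from 1.87 to 1.08, 42.3% lower, and Camk2d from 1.41 to 0.726, 48.4% lower. The 4 CaMKII genes together gave 5.68 per 10000 in Wistar and 3.15 in SHR, or 51.8 and 23.4 per 100 counts of Calm2 and Calm3. Camkk2, which encodes a kinase that activates CaMKI and CaMKIV, went from 0.429 to 0.161 per 10000, and Eef2k, the elongation factor 2 kinase gene, from 0.802 to 0.479. Camk1 was the 1 gene of the 9 that was higher in SHR, with 1.14 per 10000 in Wistar neurons and 1.38 in SHR neurons.

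Genes of calcineurin, the phosphatase activated by calmodulin, went both ways. Of 11 genes, 9 passed the minimum, and 4 of them were lower and 5 higher, against 65.6% and 34.4% of all genes past the minimum. The median log2 difference of the 9 was 0.11, beside -0.05 for all genes. The catalytic subunit gene Ppp3ca went from 0.931 per 10000 in Wistar neurons to 0.535 in SHR neurons, 42.5% lower, and Ppp3cc from 0.345 to 0.0954. The third, Ppp3cb, was higher in SHR, with 0.619 per 10000 in Wistar neurons and 0.745 in SHR neurons. Ppp3r1, the regulatory subunit gene, was at 1.74 per 10000 in Wistar neurons and 2.20 in SHR neurons, and Chp1, which encodes a related EF-hand protein, at 3.05 and 4.25. Rcan1 and Rcan2, which encode regulators that bind calcineurin, were higher in SHR by 42.4% and 37.4%.

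Of the 13 other effectors, 6 passed the minimum and 4 of these were lower, against 65.6% of all genes past the minimum. The median log2 difference of the 6 was -0.06, beside -0.05 for all genes. Marcks, which encodes a protein kinase C substrate that binds calmodulin, had 2.43 per 10000 in Wistar and 2.65 in SHR. Its relative Marcksl1 was 71.6% higher in SHR, at 1.10 against 0.638 per 10000. Camta2, a calmodulin-binding transcription activator gene, went from 0.536 to 0.331 per 10000, and Adcy3, an adenylyl cyclase gene, from 0.381 to 0.319. Over all 8 lists without the members, 29 genes passed the minimum, 12 were lower and 2 were higher by at least 1.5-fold (backgrounds of 26.5% and 5.22%), and the median log2 difference was -0.13.

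**Figure D3:**
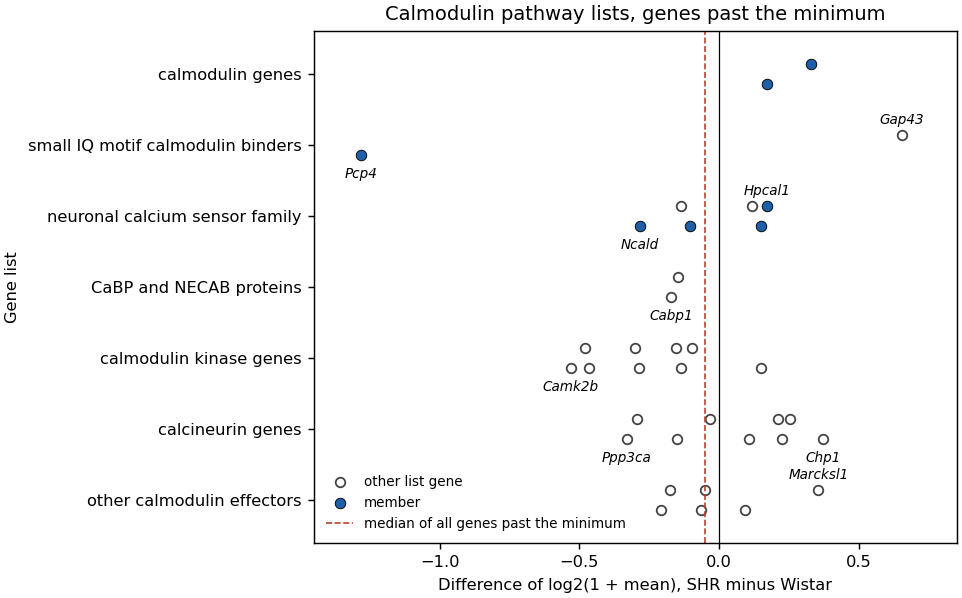
The log2 difference (log2 of the mean with 1 added, Wistar subtracted from SHR) for each gene past the minimum in 7 gene lists of the calmodulin pathway, 1 point per gene, with members filled in blue. Pcp4 at -1.28 and Gap43 at 0.65 stand at the ends of their list. Below 0 lie 8 of 9 kinase genes, against 65.6% of all genes past the minimum, and the dashed line marks the median of all these genes at -0.05.

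The size rule called more genes lower than higher. Over the genes past the minimum, the plain ratio of the means, SHR over Wistar, had a median of -0.21 on the log2 scale. With this median set to 0, 17.3% of genes were lower and 13.2% higher by at least 1.5-fold. Relative to it Pcp4 was again lower, with Cabp7, Camk2b, Camk2d, Camkk2, Ppp3ca, Ppp3cc and Iqgap1, and Calm3, Vsnl1, Hpcal1, Gap43, Rcan1, Rcan2, Chp1 and Marcksl1 were higher. Camk2g, Cabp1, Eef2k, Cabin1 and Camta2 were then not past the size. Cabp7, Ppp3cc and Iqgap1 had SHR means below 0.1 per 10000 and passed the minimum through their Wistar means. Relative to the same median 2 of the 7 members were lower, Pcp4 and Ncald, since Ncs1 stood 0.064 above it on the log2 scale. This median is that of all levels together. Among the 1676 genes with an average of at least 1 per 10000, 11.6% were lower and 10.3% higher by at least 1.5-fold without any shift. Calm3 and Chp1, 1.30-fold and 1.39-fold higher by the plain means, reached the size only with the shift, and Ncs1 turned to higher only with it. Under the other totals and pseudocounts that were tried, and with the median log2 difference of the means plus 1 set to 0, Calm2, Calm3, Vsnl1 and Hpcal1 were higher and Pcp4, Ncald and Ncs1 were lower in SHR.

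The 5 genes whose pair of means lay closest to that of Pcp4, by Euclidean distance on the log2 scale with 1 added over the 2 libraries, were Apoe, Alcam, Insrr, Srsf2 and Ddc. Apoe, the apolipoprotein E gene that satellite glia express strongly, was closest, at 6.24 per 10000 in Wistar neurons and 2.23 in SHR neurons. Alcam, a cell adhesion molecule gene, went from 6.19 to 2.84, and Insrr, the insulin receptor-related receptor gene, from 5.58 to 2.46. Srsf2, a splicing factor gene, went from 5.52 to 2.73, and Ddc, the gene of the decarboxylase that makes dopamine, from 7.05 to 3.44. The ratio of Pcp4 to Apoe was nearly alike in both libraries, at 116.2 counts of Pcp4 per 100 counts of Apoe in Wistar and 107.3 in SHR. Likeness over 2 libraries is a weak measure, since any genes with a like level and a like difference meet it.

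The means of the sympathetic neuron markers are a description. The paper used Th, Dbh, Slc6a2, Maoa, Cacna1b and Dlg4 as markers of these neurons, so their presence does not test the neuron label. Slc6a2 had 15.9 per 10000 in Wistar and 15.2 in SHR, Th 10.2 and 10.1, and Dbh, the dopamine beta-hydroxylase gene, 10.2 and 6.36. All 15 sympathetic neuron markers had values in both libraries, and 10 of them were lower in SHR, beside 65.6% of all genes past the minimum. Dbh, Maoa, Cacna1b, Ddc and Npy were lower and Hand2 was higher by at least 1.5-fold (backgrounds of 26.5% and 5.22%). The sum of the 15 was 146.6 per 10000 in Wistar and 151.3 in SHR, most of it from Prph, at 58.0 and 67.6, and Uchl1, at 25.0 and 30.8. Markers of other cell types were also listed in the neuron cluster, and they were lower in SHR together with Pcp4. Of 37 such markers with a value, 33 were lower in SHR, beside 66.0% of the 14256 genes above 0 in both libraries, with a summed mean of 12.75 per 10000 in the Wistar neurons and 4.38 in the SHR neurons. The 33 include Kcnj10 and Rgs5, at 0 in SHR, a kind of gene that the 14256 leave out. The 10 markers of satellite glia or Schwann cells were all lower, summing to 9.39 per 10000 in Wistar and 3.46 in SHR, with Kcnj10 at 0 in SHR. All 6 fibroblast markers were lower, with sums of 1.84 and 0.353, as were 7 of 8 immune markers, with sums of 1.29 and 0.424. For endothelial markers 5 of 6 were lower, with sums of 0.0692 and 0.0440, and for smooth muscle or pericyte markers 4 of 6, with sums of 0.120 and 0.0714 and Rgs5 at 0 in SHR. Of the erythrocyte markers with a line, Hbb was at 0.0474 and 0.0237 and Alas2 at 0 in both. Apart from Apoe, all these markers together reached 6.51 per 10000 in Wistar and 2.14 in SHR. Their part in the Pcp4 difference was not tested, and levels of Pcp4 in the other cell clusters of the ganglion were not analysed here.

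**Figure D4:**
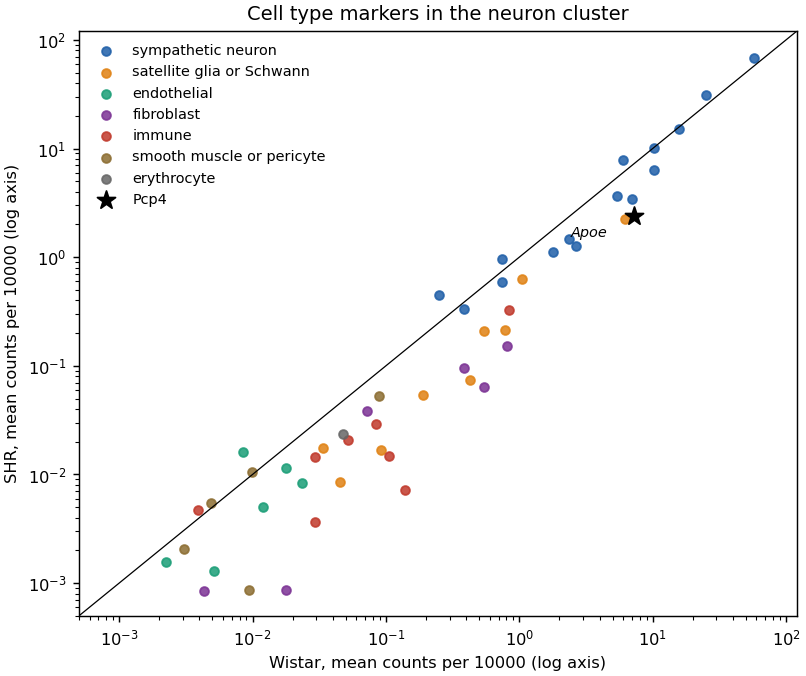
Mean counts per 10000 in SHR against Wistar, both on log axes, for cell type markers above 0 in both libraries, coloured by cell type, with Pcp4 as a star and the line of equal means. Of the 15 sympathetic neuron markers 10 lie below the line and 5 above it, beside 65.6% and 34.4% of all genes past the minimum. Most markers of other cell types lie below the line, and Apoe lies next to Pcp4 (6.24 and 2.23 against 7.26 and 2.40).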

How the data were processed

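Dissociated stellate ganglia were sequenced by scRNAseq in 1 Wistar and 1 SHR library. Per the labels, the authors used Cell Ranger 3.0.2 on Rnor_6.0 and Seurat 3, and deposited 1 natural log value per gene, that of the mean count per 10000 over the sympathetic neuron cluster with 1 added. Filters on cells, doublet removal and the number of neurons are not given in the sources used here, and doublets cannot be looked for in means. Converted back, the 25399 lines of each library summed to 10000. Of these lines 25 carry a date in place of a gene name, and 4 of them that share a name were dropped. The authors' table of fold changes and p-values between the strains was not used, nor were its 2 columns of shares of cells, whose names give no sample.

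Means, percent changes and differences were computed with Python 3.11.15, NumPy 2.4.6 and pandas 2.3.3, with a pseudocount of 1 per 10000 and a minimum average of 0.1 per 10000. The code was run on simulated means with known fold changes and no noise, which checks the computation alone. With 1 library per strain no test was made. The members, the 8 pathway lists and the 7 marker lists were chosen with earlier results of these data known. The genes named are the members, Pcp4l1, up to 4 further genes of each list with the highest average past the minimum, the 5 genes closest to Pcp4, and Th, Dbh and Slc6a2. Some genes under this rule are left out. Further genes, among them Ppp3cb, Ppp3cc, Rcan1, Camkk2, Eef2k, Iqgap1, Cabin1, single markers and genes at or near 0, were named after their values were seen. Promoters are RefSeq sequences on GRCr8, found for 4 of the 9 members. In GRCr8 other genes overlap the spans of Ncald and Ncs1, and none of them has a line. Other pseudocounts, totals, centring and minimums were tried.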

Additional observations from a re-analysis of the deposited data

How the results depend on the processing

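No paired analysis was possible because there is a single library for each strain. A planned count over proteins with EF-hand or IQ motifs was not run, because no protein table was used here. The log2 difference of Pcp4, -1.28, became -1.56, -0.48 and -1.59 with pseudocounts of 0.1, 10 and 0.01, by the construction of the pseudocount. It was -1.30 with mitochondrial and ribosomal protein genes taken out of the total, -1.33 without the 20 genes of highest average in the total and -1.23 with the median difference set to 0. Leaving markers of other cell types out of the total moved neither Pcp4 nor any of the 34 other named genes by 0.005. This follows from their sums, 12.75 of 10000 in Wistar and 4.38 in SHR. The setting changes the total alone and cannot show what transcripts of other cells add to a gene. Of these 34, Th changed sign under both other totals, and Th (0.043) and Pcp4l1 (0.037) under the centring, which adds 0.05 to each gene.

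Added to the means before the 1.5-fold size was applied, a pseudocount of 10 left 0 members lower, 0 higher and 0 past a log2 difference of 1. It left 0 list genes lower and 0 higher, beside 0.0656% of all genes each way, since it outweighs most means. Under both other totals 2 of 8 members were lower by 1.5-fold, as Calb1 then passed the minimum. The share of all genes was 25.0% without mitochondrial and ribosomal protein genes and 26.4% without the 20 genes. With the median set to 0, 3 of 7 members were higher, and 7 of 29 list genes were lower and 5 higher, beside 17.3% and 13.2% of all genes. With no minimum, 2 of 9 members were lower and 2 higher, and 20 of 53 list genes were lower and 4 higher. Of all 14256 genes in this setting, 35.8% were lower and 11.6% higher. With a minimum of 1 per 10000, 0 of 5 members were higher, and 3 of 10 list genes were lower and 1 higher, as fewer genes were counted. Of all 1676 genes in this setting, 11.6% were lower and 10.3% higher. The median log2 difference of the list genes without the members, -0.13, became -0.29, -0.016 and -0.32 with pseudocounts of 0.1, 10 and 0.01. It was -0.10 without mitochondrial and ribosomal protein genes, -0.11 without the 20 genes, -0.083 with the median set to 0 and -0.010 with no minimum. It turned to 0.12 with the minimum of 1 per 10000, where 10 list genes were counted and the median of all genes was 0.04. The number of members lower by any amount was 3 or 4 under the settings tried on the means plus a pseudocount, with 5 to 9 members counted. With the minimum of 1 per 10000 it was 3 of 5, beside 45.5% of all genes. It was 2 of 7 when the median of the plain ratios was set to 0. Depth is unknown, so the counting error of low means such as those of Calb1, Calb2 and Hpcal1 cannot be stated.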
